A study of Mus musculus with 2 samples.

Results

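The 8 genes described here encode 3 families of microRNAs best known from the nervous system, measured in kidneys of mouse embryos. They are Mir132 and Mir212, which lie side by side and whose mature sequences are found nowhere else among annotated miRNA genes, and the multi-copy genes Mir9-1, Mir9-2 and Mir9-3 for miR-9 and Mir124a-1, Mir124a-2 and Mir124a-3 for miR-124. They were chosen by symbol, as the annotated genes of these families, with no use of their counts. Of the 8 genes, 7 have a row among the 1973 miRNA genes in both tables of counts. The identifier of Mir9-1 has no row, and the level of that gene is not analysed here except through a gene on the opposite strand of its locus, described below.

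The samples form 1 group, kidney of B6NCrl mouse embryos aged 14.5 days, with 2 replicates and no treatment, mutation or second tissue. Each replicate was made from 2 kidneys, and the labels give the material both as that of a pup and as pooled male and female. Both replicates have the same donor identifier. The number of embryos behind a replicate, and whether the replicates come from different embryos, are therefore not settled. Whole kidneys were used, which also hold vessels, blood and nerve fibres, and in such tissue fewer cells of a type and less RNA per cell cannot be told apart. Libraries were made from RNA of less than 30 nucleotides.

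A miRNA gene is transcribed as a longer RNA, cut to a hairpin and then to short mature strands, called 5p and 3p for the arm of the hairpin they come from. A mature miRNA finds its target messenger RNAs mainly through its seed, bases 2 to 8 from the 5′ end, so miRNAs with the same seed are counted as a family. miR-124 is the leading miRNA of differentiated neurons, and represses the splicing regulator Ptbp1 and many genes of other lineages. miR-9 acts in neural progenitors and during the making of neurons. miR-132 and miR-212 are induced in neurons by activity through the factor CREB and act on the growth of dendrites, and they are also found outside the nervous system, for example in endothelial cells and heart.

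The sequences of the pair and of miR-9 are shown because they decide which reads can be assigned to a gene. They are from RefSeq on GRCm38.p6, where 5 of the 8 genes were matched, and the miR-124 genes are named only. In the mature sequences the capitals mark the seed.
miR-132-3p: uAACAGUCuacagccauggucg
miR-212-3p: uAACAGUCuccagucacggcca
miR-9-5p: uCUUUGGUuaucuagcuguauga
miR-9-3p: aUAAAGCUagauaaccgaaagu
miR-132-3p and miR-212-3p have the same seed, AACAGUC, and no other annotated mouse miRNA in RefSeq has it. They are identical at 17 of 22 positions, and the 5 differences, counted from the 5′ end with the base of miR-132-3p first, are A10C, C14U, U17C, U20C and G22A. The seeds of miR-9-5p and miR-9-3p are each found in the 3 miR-9 genes alone. In the hairpins below, the capitals mark the 5p and 3p arms.
Mir132: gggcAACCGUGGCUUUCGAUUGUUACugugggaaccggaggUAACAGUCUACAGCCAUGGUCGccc
Mir212: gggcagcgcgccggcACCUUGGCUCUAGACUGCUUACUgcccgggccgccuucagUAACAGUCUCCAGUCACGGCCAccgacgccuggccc
Mir9-1: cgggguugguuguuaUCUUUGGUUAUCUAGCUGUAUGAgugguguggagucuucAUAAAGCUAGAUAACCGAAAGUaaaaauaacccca
Mir9-2: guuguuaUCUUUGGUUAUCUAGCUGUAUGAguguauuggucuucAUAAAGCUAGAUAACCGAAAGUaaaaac
Mir9-3: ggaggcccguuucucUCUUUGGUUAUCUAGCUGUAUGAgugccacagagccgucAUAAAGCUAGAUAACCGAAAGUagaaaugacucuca
Both arms are the same, base for base, in the 3 miR-9 hairpins. Around the 5p arm of 23 bases, Mir9-1 and Mir9-2 share 7 bases before it, which is as far as the Mir9-2 hairpin reaches, and 3 after it, a common stretch of 33 bases. Mir9-3 differs from both at the base just before that arm and shares 3 bases after it, a stretch of 26. Around the 3p arm of 22 bases, Mir9-1 and Mir9-2 share 6 bases before and 5 after, again 33 in all, while Mir9-3 shares 2 before and 1 after with each, 25 in all. An exact read of the arm alone therefore has 3 places of origin, and a read has fewer only where it runs past these common stretches.

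The members of the pair share no such stretch. Compared with 2201 other hairpins of GENCODE release M21 on both strands, the longest run that Mir132 had in common with any of them was 11 bases, and that of Mir212 was 12 bases. Each miR-124 gene shared up to 32 bases with another miR-124 gene, and 21 or more with both others. Each miR-9 gene shared 21 or more with both other miR-9 genes.

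Mir132 (ENSMUSG00000065537.1) lies on the plus strand of mm10 chromosome 11, 75173682 to 75173747, and Mir212 (ENSMUSG00000065590.1) at 75173388 to 75173478, with 203 bases between the hairpins. Both are in an intron of the non-coding gene 1700016P03Rik in release M21. Of the miR-9 genes, Mir9-1 is in an intron of the lincRNA Gm3764 (chromosome 3, 88215598 to 88215686), Mir9-2 overlaps an exon of the lincRNA C130071C03Rik (chromosome 13, 83738814 to 83738885) and Mir9-3 is in an intron of Mir9-3hg (chromosome 7, 79505264 to 79505353). Mir124a-1 overlaps an exon of Mir124a-1hg (chromosome 14, 64590657 to 64590741) and Mir124a-2 an exon of Mir124-2hg (chromosome 3, 17795662 to 17795770). Mir124a-3 (chromosome 2, 180894040 to 180894107) has no host that spans it on its strand.

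Own-strand counts of all miRNA genes summed to 5202588 in replicate 1 and 3683978 in replicate 2. Levels are counts per 1000000 of these (CPM), not divided by gene length, since a read covers a mature miRNA from end to end. The tables give a count per hairpin gene, so the arms were not told apart. Reads that mapped to several places, 28.3% of replicate 1 and 27.5% of replicate 2, are in no gene's count. A count of 0 allows up to 3 counts, which is 0.577 CPM in replicate 1 and 0.814 CPM in replicate 2. Intervals cover counting error only. They take each read as independent, while PCR copies of the same molecule were not marked by molecular identifiers. All 9 kidney and posterior mesoderm miRNA genes listed for the tissue, among them Mir10a and Mir196b, had 10 or more counts in each replicate. Over all 1973 genes, 17.5% did. Together the 9 genes held 282394 CPM in replicate 1 and 281130 CPM in replicate 2, with means from 57.1 CPM to 144007 CPM for Mir10a. The list was chosen with earlier results of these data known, so it is not an independent check of the tissue label. Listed markers of other cell types were also counted, with the hepatocyte marker Mir122 at 56.3 and 1074 CPM and the endothelial Mir126a at 45180 and 47759 CPM. The erythroid list of Mir451a, Mir144 and Mir486 was at 161 and 77.6 CPM. Of the leukocyte list, 3 of 4 genes with a row were detected. Of the skeletal and cardiac muscle list, 2 of 5 were detected and 2 were at 0.

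Mir132 and Mir212 were counted at clear levels, and the miR-9 and miR-124 genes were at or near 0. At the minimum of 10 counts in each replicate, 2 of the 8 genes were detected, Mir132 and Mir212, against 17.5% of all 1973 miRNA genes in the tables. Mir132 had 2300 counts in replicate 1 and 1310 in replicate 2, which is 442 CPM (95% exact Poisson interval 424 to 461) and 356 CPM (337 to 375). Its mean was 399 ± 61.2 CPM (SD, n = 2), rank 115 of the 345 detected genes. Mir212 had 317 and 183 counts, 60.9 CPM (54.4 to 68.0) and 49.7 CPM (42.7 to 57.4), a mean of 55.3 ± 7.96 CPM (SD, n = 2), rank 210. In each library the intervals of these genes stood well apart, and Mir132 was higher in both.

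The counted multi-copy genes held 7 counts in each library, all of them in miR-9 genes. Mir9-3 had 6 counts in replicate 1 and 7 in replicate 2, 1.15 CPM (0.423 to 2.51) and 1.90 CPM (0.764 to 3.91). Mir9-2 had 1 count in replicate 1 and 0 in replicate 2, so that Mir9-3 had nearly every count of the counted miR-9 genes. Mir9-3 was the higher of these in both libraries, and that order was not tested. Mir124a-1, Mir124a-2 and Mir124a-3 had 0 counts in each replicate, on either strand. Mir132 and Mir212 had no count on the opposite strand either. Of all 1973 miRNA genes, 1257 had 0 own-strand counts in both replicates.

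**Figure D1:**
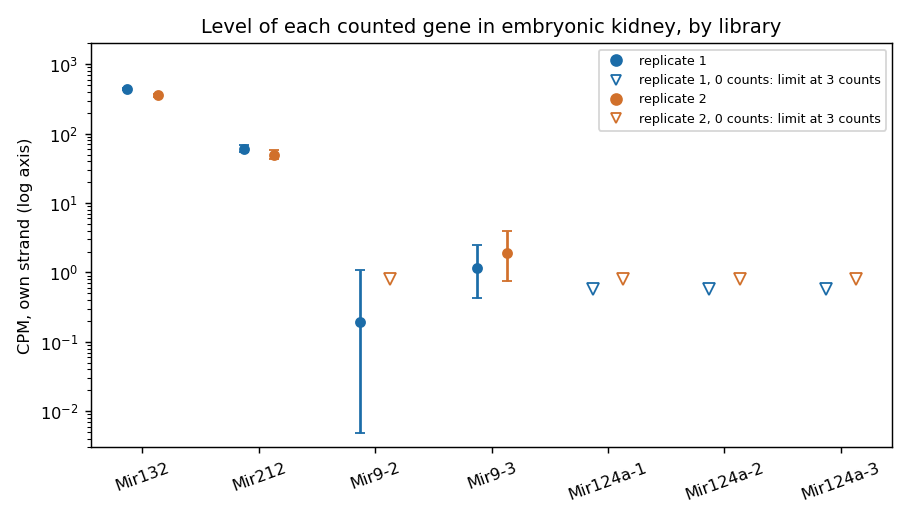
The plot gives the level of each of the 7 counted genes on its own strand (y axis, CPM, log axis), with blue for replicate 1, orange for replicate 2 and bars for the exact 95% Poisson interval. Open triangles stand at the limit that a count of 0 allows, 0.577 and 0.814 CPM, and mark Mir9-2 in replicate 2 and the 3 miR-124 genes in both libraries, all far below Mir132 and Mir212.

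The locus of Mir9-1 can be read in part through Gm25641, a miRNA gene of the minus strand that spans it (chromosome 3, 88215589 to 88215696). Gm25641 had 0 counts on its own strand in both replicates. On the opposite strand, that of Mir9-1, replicate 1 gave 3 counts and replicate 2 gave 2, 0.577 CPM (0.119 to 1.69) and 0.543 CPM (0.0657 to 1.96). This gene was chosen after its values were seen. With these counts, the 3 miR-9 loci summed to 10 counts in replicate 1 and 9 in replicate 2.

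Between the uniquely mapped pair and the multi-copy genes, assigned counts differed widely. Mir132 and Mir212 together held 2617 counts in replicate 1 and 1493 in replicate 2, against 7 in each for the miR-9 genes. The pair was thus 374-fold higher in replicate 1 (95% exact interval 181 to 931) and 213-fold higher in replicate 2 (103 to 531), a log2 ratio of 8.14 ± 0.57 (SD, n = 2). Over the miR-124 genes, which had no count, the pair was at least 872-fold higher in replicate 1 and at least 498-fold higher in replicate 2, taking 3 counts per library as the floor for the sum. The exact 95% interval, which allows more than 3 counts, began at 709-fold in replicate 1 and 404-fold in replicate 2. As a share of all counts, the pair held 0.0503% of replicate 1 and 0.0405% of replicate 2.

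These ratios are of assigned counts and not of miRNA amounts. Any reads of miR-9 and miR-124 that match several copies would be in the tally of reads mapped to several places. That tally, over all sequences, was 2960222 reads in replicate 1 and 1862424 in replicate 2. The part of that tally in the low counts was not tested. To set the contrast among other genes, 858 counted genes with RefSeq sequences were classed by whether their mature arms also occur, on either strand, at another annotated miRNA gene. Of 774 genes with no arm shared, the class of Mir132 and Mir212, 254 were detected (32.8%). Of 50 genes with an arm shared and another not, 36 were detected (72.0%). Of 34 genes with every arm shared, the class of Mir9-2 and Mir9-3, 8 were detected (23.5%), and 23 had no count in either library. RefSeq gives 17 of these 34 genes a mature sequence for 1 arm only, and 4 of the 8 detected genes are among them. Of the other 17, which like Mir9-2 and Mir9-3 have 2 arms and share both, 4 were detected.

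The members can be placed within these classes. Among the 774 genes with no arm shared, 88 had a higher mean CPM than Mir132 and 154 a higher one than Mir212. Among the 34 genes with every arm shared, 26 were at or below the level of Mir9-3. The highest gene of that class, Mir199b, reached 215 CPM, lower than Mir132 and higher than Mir212. Sharing of every arm thus did not go with a count of 0 in each case: Mirlet7a-1 and Mirlet7c-2 of the let-7 family had 143 and 72.9 CPM. Mirlet7a-1, Mirlet7c-2 and Mir199b were named here after their values were seen. The classes differ in which miRNAs they hold as well as in sharing, and no test between them was made.

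**Figure D2:**
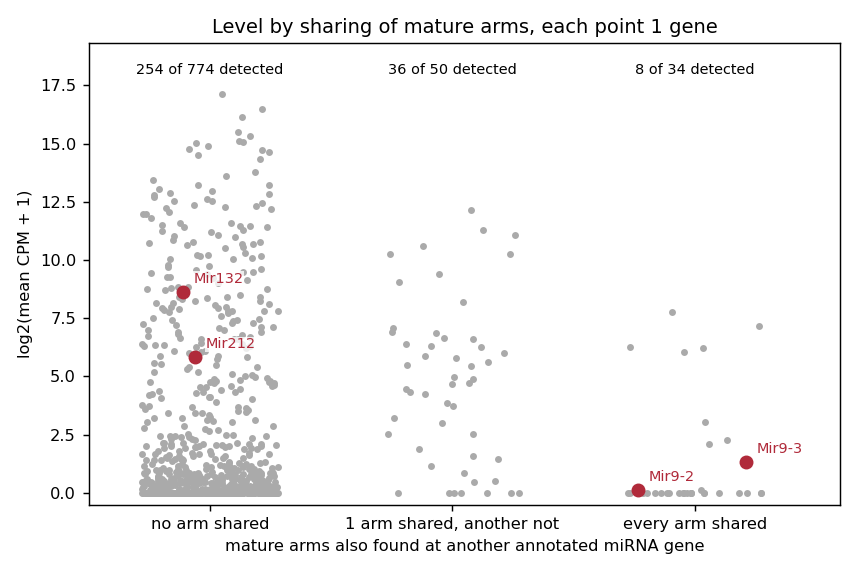
Each point is 1 of 858 counted miRNA genes, placed by whether its mature arms are also found at another annotated miRNA gene (x axis) and by its level (y axis, log2 of mean CPM plus 1). Mir132 and Mir212 stand among the genes with no arm shared, and in the class of 34 genes with every arm shared Mir9-3 stands just under the 8 detected genes and Mir9-2 near 0.

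The members of the pair kept nearly the same ratio in both libraries. Mir132 exceeded Mir212 by 7.26-fold in replicate 1 (95% exact interval 6.45 to 8.19) and by 7.16-fold in replicate 2 (6.13 to 8.40), a log2 ratio of 2.85 ± 0.014 (SD, n = 2). Of the pair's counts, Mir132 held 87.9% (95% exact Clopper-Pearson interval 86.6 to 89.1) in replicate 1 and 87.7% (86.0 to 89.4) in replicate 2. The intervals overlap almost in full.

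Both genes had lower values in replicate 2. The log2 ratio of replicate 2 over replicate 1 was -0.31 for Mir132 (95% exact interval -0.41 to -0.21) and -0.29 for Mir212 (-0.56 to -0.024). In the exact binomial test over the 345 detected genes, with Benjamini-Hochberg adjustment, a gene was called when its adjusted p was below 0.05 and its log2 ratio was 1 or more in either direction. Neither gene was called, against 11 of 345 genes (3.19%). On adjusted p below 0.05 alone, a rule that 53.9% of detected genes passed, Mir132 passed (adjusted p = 1.8e-09) and Mir212 did not (adjusted p = 0.0539). The test compares these libraries and counts only counting error. With an assumed coefficient of variation of 0.2, edgeR's exact test gave both an adjusted p of 1 and called 2 genes in all. Of the 345 detected genes, 126 had a ratio larger in size than Mir132 and 141 than Mir212, where the median size was 0.24.

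Some markers of other cell types also differed between the libraries in the exact binomial test. Mir122, the main miRNA of hepatocytes, had a log2 ratio of 4.26 (95% exact interval 4.09 to 4.43) and was called. Of the erythroid genes, Mir451a was called at -1.22 (-1.47 to -0.98), Mir144 at -0.70 passed on adjusted p alone (0.00034), and Mir486 at -0.70 (-1.61 to 0.16) did not pass (adjusted p = 0.166). Mir132 and Mir212 were thus lower in the library in which the 3 erythroid genes also had lower values and Mir122 was higher. That direction was not particular to the erythroid genes. On adjusted p alone, 6 of the 9 kidney and posterior mesoderm genes were lower in replicate 2 and 2 were higher. Of all detected genes, 27.2% passed and were lower in replicate 2. The part of any of these cells in the ratio was not tested. Over 22 detected genes of the list of other neural miRNAs the median ratio was 0.025, beside 0.022 over all detected genes.

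**Figure D3:**
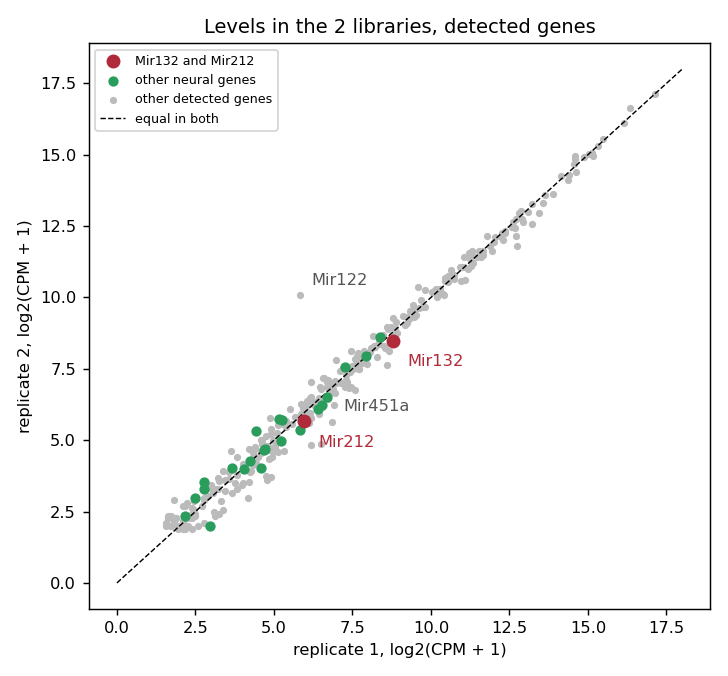
Levels of the 345 detected genes in replicate 1 (x axis) and replicate 2 (y axis), both log2 of CPM plus 1, with Mir132 and Mir212 in red, other neural genes in green and all others in grey. Mir132 and Mir212 lie just under the dashed line of equal levels, at log2 ratios of -0.31 and -0.29, while Mir122 lies far above it and Mir451a below.

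Most other miRNA genes linked to the nervous system were also counted in embryonic kidney, with fewer assigned counts than Mir132. Of 27 listed symbols, 23 match a row and 22 of these were detected, where 17.5% of all genes were, and none of the 23 was at 0. The list was chosen with earlier results of these data known, so its share is a description and not a test. The share of all genes includes the 1257 of 1973 with 0 counts in both replicates. The list holds Mir219-1 and Mir219-2 beside Mir219a-1 and Mir219a-2, and only the latter names match a row. The listed symbol Mir873 matches no row, and Mir873a, with 2 and 4 counts in replicates 1 and 2, was not detected. None exceeded Mir132 in mean CPM, 6 lay between Mir132 and Mir212 and 17 lay below Mir212. Summed, the 23 genes held 1334 CPM in replicate 1 and 1421 CPM in replicate 2. Many of them are expressed outside the nervous system too, so the list does not mark neural cells alone.

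The leading genes of that list were Mir134, Mir330, Mir135b and Mir34a. Mir134, a miRNA of dendrites encoded in the imprinted Dlk1-Dio3 region, had 331 CPM in replicate 1 and 388 CPM in replicate 2. Its range overlapped that of Mir132, so the order of these genes at the top does not go beyond the spread of the replicates. Mir330 had 245 and 248 CPM, and Mir135b had 152 and 189 CPM. Mir34a, a target of the tumour suppressor p53, had 101 and 89.8 CPM. Around Mir212, Mir485 was higher at 83.4 and 67.0 CPM with no overlap of the replicates. The range of Mir138-2, at 56.1 and 40.4 CPM, overlapped that of Mir212, though Mir212 was the higher within each library. These neighbours were chosen after their values were seen.

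**Figure D4:**
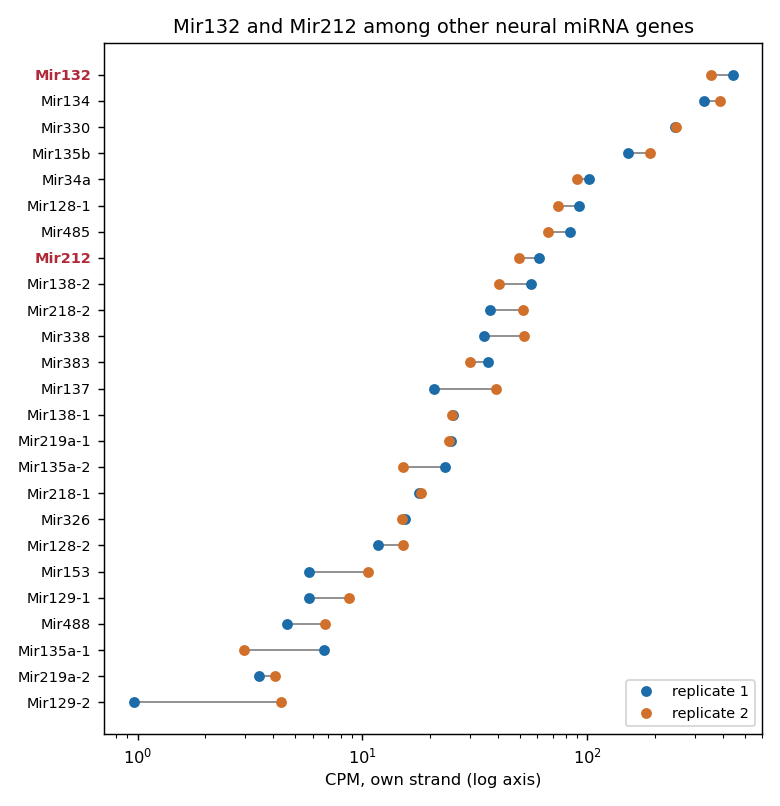
Levels of Mir132 and Mir212 (bold red labels) and 23 other neural miRNA genes in order of mean level (x axis, CPM on a log axis), with a point for each replicate and a line between them. Mir132 has the highest mean, overlapping Mir134, and Mir212 stands lower at 60.9 and 49.7 CPM. Levels are of assigned counts, which leave out reads mapped to several places.

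Several of these genes have a second copy like miR-9, but share an arm rather than both. Of the 22 listed genes that could be classed, 10 had an arm shared and another not, and 9 of them were detected. Among them were Mir128-1 at 91.9 and 74.4 CPM and Mir128-2 at 11.7 and 15.2 CPM, which are named for the same mature miRNA. Likewise Mir138-2 exceeded Mir138-1, at 25.4 and 25.0 CPM, in both libraries. Mir218-2 at 36.9 and 51.8 CPM exceeded Mir218-1 at 17.9 and 18.2 CPM. An exact read of the shared arm alone matches another gene as well, so these levels leave it out. The order within each pair is therefore that of assigned counts, and which copy gave more mature miRNA was not tested. The 2 genes with every arm shared, Mir129-1 and Mir219a-2, were detected at means of 7.23 and 3.77 CPM, and RefSeq gives each of them 1 mature arm only, unlike the miR-9 genes. The 10 genes with no arm shared were all detected, between 5.70 and 360 CPM. The pairs named in this paragraph were chosen after their values were seen.

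Between the libraries, 1 of the 22 detected neural genes was called in the exact binomial test, Mir135a-1, which was lower in replicate 2 at 35 and 11 counts in replicates 1 and 2. Under the same rule 3.19% of all detected genes were called, and Mir135a-1 is named because it was the gene called. On adjusted p alone, 6 were higher and 5 lower in replicate 2, beside 53.9% of all detected genes in either direction.

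The genes whose levels were most like those of the pair were found by the distance in log2 of CPM plus 1 over the 2 libraries. Nearest to Mir132 were Mir339 at 448 and 378 CPM (distance 0.090), Mir671 at 455 and 400 CPM (0.17) and Mir669o at 458 and 425 CPM (0.26). Nearest to Mir212 were Mir26a-2 at 57.7 and 50.5 CPM (0.082), Mir667 at 67.9 and 47.8 CPM (0.16) and Mir196a-1 at 57.5 and 56.7 CPM (0.21). With 2 libraries of 1 group, this likeness says only that the levels are close.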

How the data were processed

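Small RNA libraries of 2 replicates of embryonic mouse kidney were analysed. For each library the authors deposited unnormalized read counts of miRNA genes, on mm10 and GENCODE release M4 per the deposit's file descriptions. Which aligner and counter were used is not given in the sources used here. Own-strand counts were used, and 4 tallies that name no gene were left out. Symbols and positions came from GENCODE M21 on the same assembly, and 1894 of 1973 identifiers matched without their version. Of the other 79, none had more than 1 count.

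With 1 group, edgeR's quasi-likelihood test has no contrast. Replicates were compared by the exact binomial test (two-sided), with totals scaled by TMM factors (1.00 in both) and Benjamini-Hochberg adjusted p-values. P-values measure these libraries, and SDs the spread between 2 samples, which may be technical. The test was checked on simulated counts, which cannot show whether counting error covers the spread between these libraries.

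Genes, lists and tests were chosen with earlier results of these data known. Named were all members, the 4 highest detected genes of the neural list, the 3 genes nearest to each of Mir132 and Mir212, counted neighbours within 10 kb, and Mir122, Mir451a, Mir144 and Mir486. Others are marked where they are named. Alternatives were other count minimums, both strands, DESeq2 size factors, totals alone, reads of the library as the total, a pseudocount of 1 CPM, each replicate alone and edgeR's exact test with an assumed coefficient of variation of 0.2. Including the Mir9-1 strand of Gm25641 was added after the data were examined. RefSeq sequences give annotated miRNAs only, so copies elsewhere in the genome were not searched. Python 3.11.15 was used with pandas 2.3.3, scipy 1.17.1 and numpy 2.4.6, and R 4.3.3 with DESeq2 1.42.0 and edgeR 4.0.16.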

Additional observations from a re-analysis of the deposited data

How the results depend on the processing

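In assigned counts, the pair stood above the miR-9 and miR-124 genes under each alternative run. Its log2 ratio over the miR-9 genes was 7.44 with a pseudocount of 1 CPM, 7.70 with the counts on the Mir9-1 strand of Gm25641, and 7.74 to 8.55 with a replicate left out. Over the miR-124 genes it was 8.96 to 9.77 with a replicate left out, as a lower bound, and 8.82 with the pseudocount. The log2 ratio of Mir132 over Mir212 was 2.83 with the pseudocount and 2.84 to 2.86 with a replicate left out. With no filter, 4 of the 8 genes had a count in either replicate, where 1257 of all 1973 miRNA genes had 0 in both. With a minimum of 5 counts 3 of the 8 genes were detected, and the share of all genes at that minimum is not given. Between the replicates 11 genes were called, but 2 by edgeR's exact test with an assumed coefficient of variation of 0.2, and 11 to 16 under the 5 others. Mir132 had a ratio of -0.33 to -0.31 over 6 alternatives and Mir212 -0.31 to -0.29, and neither was called under any of them. With no minimum of the ratio, Mir212 passed with DESeq2 size factors (adjusted p = 0.0392) and not under the 5 others. Scaled to 1000000 reads of the library, Mir132 was at 207 and Mir212 at 28.7, since unassigned reads enter the total. The ratio of Mir9-1 over the other miR-9 genes was not run, since Mir9-1 has no row. No paired analysis was possible because there is 1 group. Depth limits the assigned counts of the miR-9 and miR-124 genes, where levels under 0.577 CPM in replicate 1 and 0.814 CPM in replicate 2 could not be told from 0. Reads that match several copies are in no gene's count, so these limits do not bound the amounts of miR-9 and miR-124.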

Other observations

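Counted neighbours of the members within 10 kb, other than the pair itself and Gm25641, were Mir3078 next to Mir124a-1 and Mir3093 next to Mir9-1. Both had 0 counts on their own strand in each replicate, as the miR-124 genes did. So did 1257 of all 1973 miRNA genes, these among them. The other neural miRNA genes did not move in the same direction between the libraries, with a median log2 ratio of 0.025 over the 22 detected. Mir137 and Mir153, both linked to neurons, had their higher values in replicate 2, at 20.8 and 39.4 CPM and at 5.77 and 10.6 CPM in replicates 1 and 2. Their log2 ratios of replicate 2 over replicate 1 were 0.93 (adjusted p = 1.41e-06 in the exact binomial test) and 0.88 (adjusted p = 0.0271). Neither reached the ratio of 1 that a call needed. Mir338, Mir218-2, Mir135b and Mir134 were also higher in replicate 2, with log2 ratios of 0.59, 0.49, 0.32 and 0.24. Each had an adjusted p below 0.05 in the same test, a rule that 53.9% of all detected genes passed. Mir135a-1, Mir135a-2, Mir138-2, Mir485 and Mir128-1 were lower in replicate 2, with log2 ratios of -1.17, -0.61, -0.47, -0.31 and -0.30, each at an adjusted p below 0.05. These genes were chosen after their values were seen.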
